A study of Rattus norvegicus with 19 samples.

Results

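Kruppel-like factors (Klf) are zinc finger transcription factors that bind GC-rich and CACC-box DNA in promoters and enhancers. The Klf genes examined here were Klf2, Klf4, Klf5, Klf6, Klf9 and Klf10, which are 6 of the 17715 genes of the deposited table. They were chosen by symbol, with earlier results of these data known. With them came every transcriptionally active putative enhancer (TAPE) within 1 Mb of one of their start sites, 159 of 27538 in all. A TAPE is a stretch of open chromatin outside genes that gave RNA-seq reads on both strands, and its RNA is called enhancer RNA (eRNA).

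Total RNA, depleted of ribosomal RNA, was sequenced from primary neurons of Sprague-Dawley rats, taken at embryonic day 18 and grown for 11 days in vitro (DIV). Cortical, hippocampal and striatal cultures received Neurobasal medium (vehicle) or potassium chloride (KCl), which depolarizes neurons, for 1 h. Each group held 3 libraries, except for the 4 of striatal vehicle cultures, and the labels name no genetic change. Sample labels give 25 mM KCl, while the series text and the study's methods give 10 mM, so the dose is uncertain. Cortical vehicle replicate 3 is cortical by title and striatal by tissue label, and it was grouped by title. Its Klf6 and Klf10 levels, 0.32 and -0.51 standardised units, were above every striatal vehicle library (highest -0.57 and -1.15). Titles were also followed for striatum, where the study's methods give other library numbers per treatment.

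Several members of the family belong to the early transcriptional response of neurons and other cells. Klf2 and Klf4 are closely related factors, best known from endothelium and from stem cells, that can be switched on through the kinase Mapk7 (Erk5) and its Mef2 partners. Klf4 and Klf9 are known to restrain axon growth, whereas Klf6 promotes it. Klf9 also responds to glucocorticoid and thyroid hormone, Klf10 is an early target of transforming growth factor beta, and Klf5 is best known from epithelium and smooth muscle. Enhancers can lie far from the gene they act on, and their eRNA often rises with its mRNA.

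Library totals were worked out from the deposited TAPE values and came to 46.4 to 72.5 M reads, of which 47431 to 83272 lay in TAPEs. The study's methods give lower read numbers per sample, and the reason for the difference was not tested. The median TAPE had 14 reads summed over all 19 libraries, at the Klf loci and overall. Among TAPE values above 0, 73.8% were an even number of reads, as when both mates of a fragment are counted. The 10 immediate early genes checked, among them Fos, Egr1 and Npas4, were all higher with KCl by the test used for the Klf genes. All 4 cortical, 3 hippocampal and 5 striatal neuron markers with a profile were highest in their own region. None of the 7 endothelial, 4 microglial and 5 astrocyte markers with a profile passed the KCl test, and 0, 0 and 2 of them had an unadjusted p under 0.05. Of the neuron markers, 3 of 5 striatal ones were higher with KCl, and 1 in each set was lower, against 6.05% of all genes higher and 15% lower.

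Levels of mRNA were read as standardised profiles: each gene's level in each of the 19 libraries, with a mean of 0 and a standard deviation of 1 over them. They were solved from the deposited correlations between gene and TAPE values. Such a profile keeps the spacing of libraries on the linear scale of the authors' gene values but has no zero, so differences are given in standardised units and no fold change can be given. Units differ between genes, and only libraries of the same gene are compared in size. In bulk cultures, fewer expressing cells and less RNA per cell cannot be told apart.

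All 6 Klf genes were higher with KCl over the 3 regions, against 6.05% of the 16564 genes with a profile (exact permutation test within regions, two-sided, Benjamini-Hochberg adjustment over all genes). The median gene moved by -0.15 units. Because the 6 were chosen with earlier results of these data known, their count is a description and no test of the family. Of the 19 other Klf and Sp factors with a profile, 3 were called higher and 4 lower. Klf4, Klf5, Klf6 and Klf9 each reached the smallest p that 14000 arrangements can give, 7.1e-05 (adjusted p = 0.00185), with mean differences of 1.46, 1.24, 1.28 and 1.15 units. Klf2 followed at 1.20 units (adjusted p = 0.0234) and Klf10 at 0.48 units (adjusted p = 0.0482). The 4 first genes were higher in 3 of 3 regions, Klf2 and Klf10 in 2 of 3. The Klf10 call was lost in 15 of the 19 fits that leave out 1 library, with adjusted p up to 0.0832, and was kept only without cortical KCl replicate 1, hippocampal vehicle replicate 2, hippocampal KCl replicate 3 or striatal vehicle replicate 8. With ranks in place of values, Klf2 and Klf10 did not pass (adjusted p = 0.228 for each). Klf2 did not pass without cortex (adjusted p = 0.217) or without hippocampus (0.242), nor Klf10 without cortex (0.422). Without striatum none of the 6 passed (0.071 for the other 5 and 0.318 for Klf10). That setting cannot decide, since its 400 arrangements allow no p below 0.0025 and 0 of all 16564 genes were called.

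The average hides different patterns, since the KCl difference of all 6 genes depended on the region (limma F-test of the interaction, adjusted p from 1.27e-05 for Klf4 to 0.013 for Klf10, against 2.84% of all genes called). No interaction call was lost when any 1 library was left out. The immediate early genes checked passed the interaction test too, with adjusted p from 9.14e-06 (Ier2) to 0.00324 (Fos). Dependence on region is thus not particular to the Klf genes. Tests in single regions and of the interaction were added after the data were examined. In a single region 3 libraries against 3 cannot give an exact p below 0.1, and 3 against 4 none below 0.0286, so those tests rest on limma, which shares the spread over genes. That shared spread mixes the units of different genes, because each profile is scaled to an SD of 1. All limma p of gene profiles, those of the interaction and of resting levels included, carry this limit. In cortex, limma called 2 of the 6 genes higher with KCl (1.59% of all genes), in hippocampus 5 of 6 (1.17%), and in striatum 5 of 6 (4.39%). Leaving out 1 library gave 0 to 2 genes in cortex, with 0 without vehicle replicate 1 or KCl replicate 2, and 1 without vehicle replicate 2 or 3. It gave 3 to 4 in hippocampus, with 4 only without KCl replicate 2, and 4 to 5 in striatum.

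**Figure D1:**
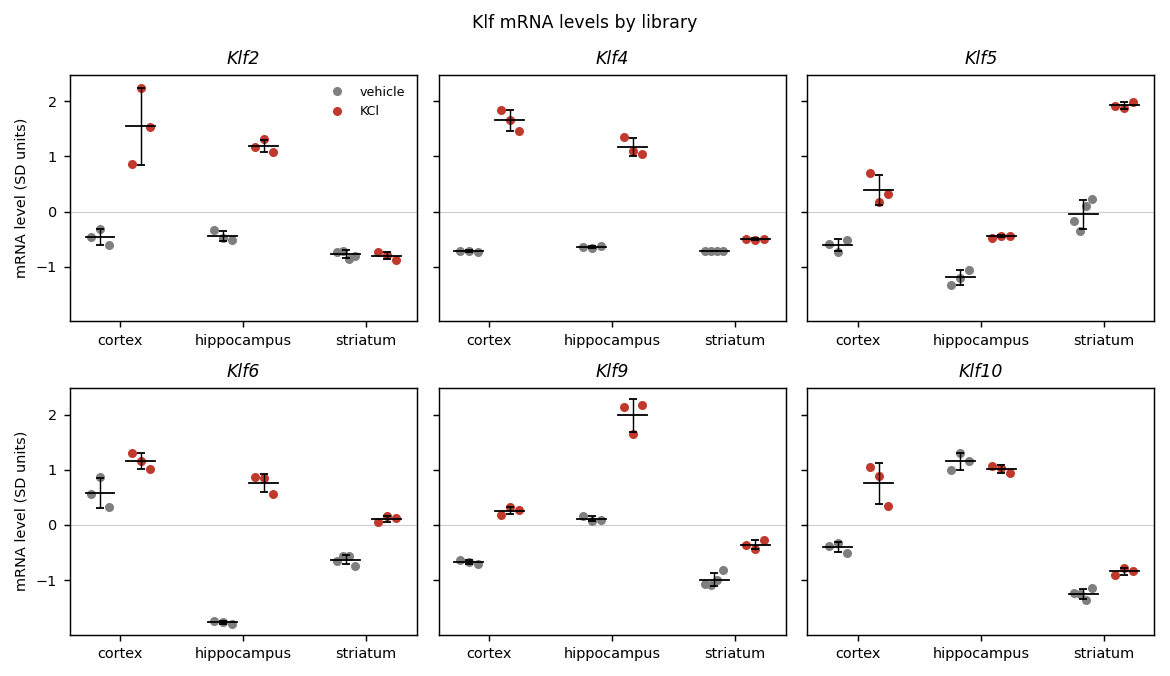
mRNA level of each Klf gene in each library (vertical axis, standardised units with mean 0 and SD 1 over 19 libraries) by region, with vehicle in grey and KCl in red. Points are libraries, bars the group mean and SD. Klf2 and Klf4 separate by treatment in cortex and hippocampus, as do 7.76% and 7.88% of all genes with KCl higher. Klf5 is highest in striatal KCl libraries (1.87 to 1.99), and Klf10 does not separate by treatment in hippocampus.

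Klf4, one of the factors used to reprogram cells to pluripotency, had its largest difference in cortex. Its cortical libraries read -0.71, -0.71 and -0.74 with vehicle and 1.84, 1.66 and 1.46 with KCl. Hippocampal libraries read -0.64, -0.65 and -0.62 with vehicle and 1.35, 1.09 and 1.05 with KCl. Every KCl library was above every vehicle library in both regions, and in striatum on a much smaller scale. The same held for 7.76% of all genes in cortex, 7.88% in hippocampus and 7.5% in striatum. All 4 striatal vehicle libraries rounded to -0.72, and the KCl libraries read -0.50, -0.52 and -0.49. The KCl difference was 2.37 units in cortex (SE 0.12, limma adjusted p = 0.00542), 1.80 in hippocampus (SE 0.10, adjusted p = 0.00892) and 0.22 in striatum (SE 0.03, adjusted p = 0.0145). The striatal difference was thus 9.24% of the cortical one, in linear units. The cortical call was lost without vehicle replicate 1 (adjusted p = 0.0531) or KCl replicate 2 (0.0519).

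Klf2, known for quiescence and flow sensing in endothelium, followed Klf4 in cortex and hippocampus. Its cortical libraries read -0.45, -0.32 and -0.62 with vehicle and 0.86, 2.24 and 1.54 with KCl, a difference of 2.01 units that did not pass (SE 0.38, adjusted p = 0.0981). All cortical KCl libraries were above all vehicle ones, as for 7.76% of all genes, but the KCl libraries were spread over more than 1 unit. Hippocampal libraries read -0.33, -0.48 and -0.51 with vehicle and 1.17, 1.31 and 1.08 with KCl, and Klf2 rose there by 1.63 units (SE 0.09, adjusted p = 0.00892). In striatum, vehicle libraries lay between -0.85 and -0.71 and KCl libraries between -0.87 and -0.74. The striatal groups overlapped, and the difference of -0.03 units (SE 0.06) did not pass (adjusted p = 0.825).

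Klf5, in contrast, had its largest difference in striatum. Striatal vehicle libraries read -0.18, -0.34, 0.10 and 0.23, and KCl libraries 1.91, 1.87 and 1.99. Cortical libraries read -0.58, -0.73 and -0.51 with vehicle and 0.70, 0.18 and 0.31 with KCl. Hippocampal libraries were the lowest, at -1.32, -1.21 and -1.06 with vehicle and -0.47, -0.45 and -0.43 with KCl. In each region every KCl library was above every vehicle library, as for 7.76%, 7.88% and 7.5% of all genes in cortex, hippocampus and striatum. Klf5 rose by 1.97 units in striatum (SE 0.15, adjusted p = 0.00156) and by 0.74 in hippocampus (SE 0.09, adjusted p = 0.0386). The cortical difference of 1.00 units did not pass (SE 0.17, adjusted p = 0.0745). The hippocampal call was lost whichever of the 6 hippocampal libraries was left out (adjusted p 0.0609 to 0.125).

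Klf6, a promoter of axon growth, moved most in hippocampus, where its vehicle level was lowest. Hippocampal vehicle libraries read -1.74, -1.77 and -1.79, the lowest Klf6 values of the study, and KCl libraries 0.86, 0.84 and 0.56. Cortical libraries started high, at 0.56, 0.87 and 0.32 with vehicle, and read 1.31, 1.15 and 1.01 with KCl. Striatal libraries read -0.65, -0.57, -0.57 and -0.74 with vehicle and 0.05, 0.16 and 0.13 with KCl. Every KCl library was above every vehicle library in each region. The same held for 7.76% of all genes in cortex, 7.88% in hippocampus and 7.5% in striatum. Klf6 rose by 2.52 units in hippocampus (SE 0.10, adjusted p = 0.00637) and by 0.74 in striatum (SE 0.06, adjusted p = 0.00218), while the cortical difference of 0.57 units did not pass (SE 0.18, adjusted p = 0.256).

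Klf9, a hormone-responsive factor that restrains axon growth, rose in every region, with the largest difference in hippocampus. Hippocampal libraries read 0.17, 0.07 and 0.10 with vehicle and 2.14, 1.64 and 2.17 with KCl. Cortical libraries read -0.64, -0.68 and -0.71 with vehicle and 0.18, 0.33 and 0.27 with KCl. Striatal libraries read -1.06, -1.09, -0.99 and -0.82 with vehicle and -0.36, -0.44 and -0.28 with KCl, so even treated striatum stayed below resting hippocampus. The differences were 1.87 units in hippocampus (SE 0.17, adjusted p = 0.0198), 0.94 in cortex (SE 0.08, adjusted p = 0.0144) and 0.63 in striatum (SE 0.08, adjusted p = 0.0086). The striatal call held without any 1 library. The hippocampal call held only without KCl replicate 2 (otherwise up to 0.0832), and the cortical one only without KCl replicate 1 (otherwise up to 0.0788).

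Klf10, also called Tieg1, was the exception in hippocampus. Its hippocampal libraries read 0.99, 1.31 and 1.16 with vehicle and 1.07, 1.03 and 0.94 with KCl, so that the groups overlapped at the highest resting level of the 3 regions. Cortical libraries read -0.38, -0.34 and -0.51 with vehicle and 1.04, 0.88 and 0.33 with KCl. Striatal libraries read -1.24, -1.24, -1.36 and -1.15 with vehicle and -0.91, -0.78 and -0.83 with KCl. The hippocampal difference was -0.14 units (SE 0.10, adjusted p = 0.566) and the cortical one 1.16 units (SE 0.21, adjusted p = 0.0916), neither past the threshold. Klf10 rose by 0.41 units in striatum (SE 0.07, adjusted p = 0.0159), a call lost without KCl replicate 5 (0.0567) or 7 (0.0556), whereas the cortical one was gained without KCl replicate 3 (0.0473).

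**Figure D2:**
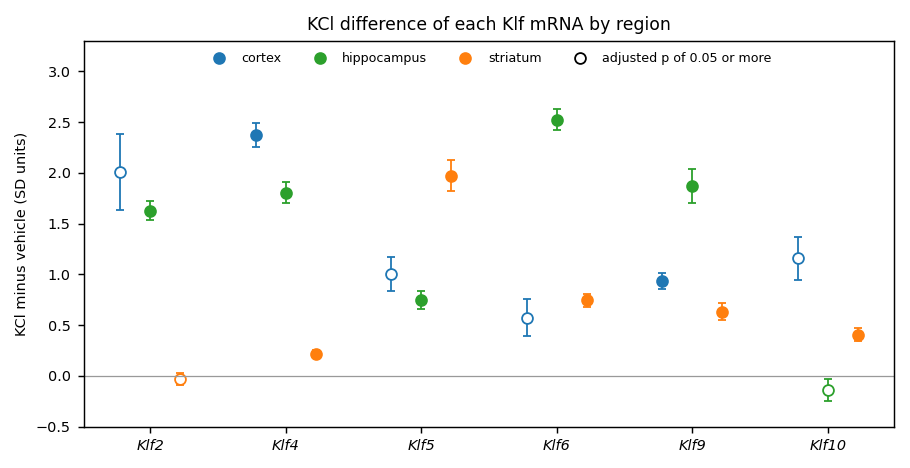
Difference of each Klf mRNA, KCl minus vehicle (vertical axis, standardised units), in cortex (blue), hippocampus (green) and striatum (orange). Points are fitted differences, bars their SE, and open points did not pass at an adjusted p of 0.05. Klf4 is largest in cortex (2.37), Klf6 in hippocampus (2.52) and Klf5 in striatum (1.97), while Klf2 in striatum and Klf10 in hippocampus lie near 0.

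Promoter letters are shown because these genes were higher with KCl yet differed in the region of their largest response. The RefSeq table (build GRCr8, another build than the Rn6 positions of the TAPEs) held Klf4, Klf5, Klf6 and Klf9, and the 250 bases before each start site were searched on both strands. Klf2 and Klf10 had no entry. Motifs were the cyclic AMP response element core TGACG, the CArG box of serum response factor, the AP-1 site TGANTCA and the GC box GGGCGG, and none of the matches overlap. Capitals mark matches in these sequences, each written 5′ to 3′ on the gene's strand:
Klf4, chr5:75078593-75078842, minus strand: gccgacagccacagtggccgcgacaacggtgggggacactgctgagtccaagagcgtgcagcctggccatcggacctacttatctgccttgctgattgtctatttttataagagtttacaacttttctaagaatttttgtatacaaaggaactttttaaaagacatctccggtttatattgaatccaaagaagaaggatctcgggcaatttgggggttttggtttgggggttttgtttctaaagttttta
Klf5, chr15:82471831-82472080, plus strand: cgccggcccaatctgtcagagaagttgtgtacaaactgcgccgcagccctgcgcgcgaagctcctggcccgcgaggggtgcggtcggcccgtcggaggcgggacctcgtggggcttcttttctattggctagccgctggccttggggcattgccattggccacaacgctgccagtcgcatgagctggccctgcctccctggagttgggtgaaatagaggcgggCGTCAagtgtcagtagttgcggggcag
Klf6, chr17:69458479-69458728, minus strand: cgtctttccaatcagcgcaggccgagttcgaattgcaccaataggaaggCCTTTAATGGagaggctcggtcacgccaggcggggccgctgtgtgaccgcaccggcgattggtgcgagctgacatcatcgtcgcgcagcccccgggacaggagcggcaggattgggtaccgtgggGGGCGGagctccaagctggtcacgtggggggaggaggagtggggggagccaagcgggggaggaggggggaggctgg
Klf9, chr1:230126396-230126645, plus strand: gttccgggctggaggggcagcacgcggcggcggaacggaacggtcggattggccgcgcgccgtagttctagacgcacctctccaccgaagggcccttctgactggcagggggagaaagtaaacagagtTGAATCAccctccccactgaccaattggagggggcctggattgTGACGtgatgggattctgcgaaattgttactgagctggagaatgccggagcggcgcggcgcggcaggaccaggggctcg

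Klf5 had a cyclic AMP response element core at 27 to 23 bases before its start site, read on the opposite strand. Klf9 had the same core 79 to 75 bases before its start and an AP-1 site at 122 to 116. Klf6 had a CArG box at 201 to 192 bases and a GC box at 76 to 71. The Klf4 window held none of the 4 motifs. Whether the RefSeq start sites are those used in these cultures was not tested, so this absence holds for the printed window only. Over all 27457 promoters of the table, 19.0% held the core, 6.36% the AP-1 site, 1.5% the CArG box and 32.4% the GC box.

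Resting levels of the genes differed between regions before any KCl was added (limma contrasts over the 10 vehicle libraries, added after the data were examined). For scale, 37.1% of all genes differed between hippocampus and cortex, 50.9% between striatum and cortex and 57.6% between striatum and hippocampus. Klf6 was highest in cortex, with differences of -1.21 units for striatum minus cortex, -2.35 for hippocampus minus cortex and 1.13 for striatum minus hippocampus, and adjusted p of at most 0.000102. Klf10 was highest in hippocampus, with differences of 1.56 units for hippocampus minus cortex and -0.84 for striatum minus cortex (adjusted p = 1.61e-05 and 0.000223). Klf9 had the order of Klf10, with 0.79 units for hippocampus minus cortex (adjusted p = 0.000329) and -0.31 for striatum minus cortex (adjusted p = 0.0197). The last call was lost without cortical vehicle replicate 1 (0.0551).

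Klf5 had the reverse order. Striatum was 0.56 units above cortex (adjusted p = 0.0153) and 1.15 above hippocampus (adjusted p = 0.000254), and hippocampus minus cortex was -0.59 (adjusted p = 0.0232). The difference between striatum and cortex was lost without cortical vehicle replicate 2 (0.0533), and that between hippocampus and cortex without cortical replicate 1 or 3 or hippocampal replicate 1 or 2 (up to 0.0725). Resting Klf2 was lower in striatum, by -0.31 units against cortex (adjusted p = 0.0313) and -0.33 against hippocampus (adjusted p = 0.0207). The first was lost without cortical replicate 1 or 2 or striatal replicate 6 or 8 (up to 0.0918), the second without hippocampal replicate 1 (0.0663). Resting hippocampus and cortex did not pass for Klf2 (difference 0.02 units, SE 0.11), nor did any pair of regions for Klf4, whose differences lay between -0.08 and 0.08 units with SE of 0.07.

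Pairs of Klf profiles varied from nearly parallel to opposed. Klf2 and Klf4 had a Pearson r of 0.94 over the 19 libraries, Klf9 and Klf10 0.76, and Klf5 and Klf10 -0.47. These values describe libraries that share treatments and regions, so a region difference alone can set r. Of all genes on any chromosome, those most like Klf2 were Klf4, Mafk, Bdnf, Usp27x and Dusp6 (r 0.94 to 0.93). Bdnf is a secreted growth factor for neurons, and Dusp6 a phosphatase that inactivates Erk. The closest to Klf4 were Usp27x, Tob1, Trmt10c, Klf2 and Tp53rk (r 0.97 to 0.94).

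Klf5 was followed most closely by Nfil3, a basic leucine zipper factor (r = 0.98), then by Atg16l1, Mest, Usp36 and Zdbf2. Klf6 had no match as close: Pdp2 (r = 0.85), Camk1g, Kcnj2 and Cebpz were among the first. Klf9 was followed by Lmna, a nuclear lamina protein (r = 0.99), then by Rasl11a, Errfi1, Cfap20 and Nedd9. Klf10 was followed by Pfkfb3, an activator of glycolysis (r = 0.98), then by Ezr, Spry4, Klf3 and Mat2a.

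Among the other Klf and Sp factors, 19 of 20 had a profile, of which 3 were called higher with KCl over the regions and 4 lower, against 6.05% of all genes higher and 15% lower. Klf14 (0.81 units, adjusted p = 0.00185), Klf16 (0.96, 0.00185) and Sp9 (0.21, 0.00887) were higher. Klf11 (-0.94 units, adjusted p = 0.00413), Klf12 (-0.29, 0.0321), Klf15 (-1.10, 0.0048) and Sp3 (-0.88, 0.0482) were lower. The median of the 19 genes was 0.06 units. Klf11 is a close relative of Klf10, and its difference had the opposite sign.

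Of 8 genes of the signalling routes that can act on Klf promoters, 1 was higher and 2 lower, against 6.05% and 15% of all genes. Their median was -0.17 units, near that of all genes (-0.15). Srf, the serum response factor, rose by 1.72 units (adjusted p = 0.00185). Map2k5, the kinase that activates Mapk7, fell by 1.09 units (adjusted p = 0.00185) and Creb1 fell by 1.18 (adjusted p = 0.00272). Mapk7 itself did not pass (-0.09 units, adjusted p = 0.944), nor did Mef2d (0.90 units, adjusted p = 0.0578).

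The 159 TAPEs were spread unevenly over the loci, with 15 around Klf2, 31 around Klf4, 18 around Klf5, 33 around Klf6, 21 around Klf9 and 41 around Klf10. The genes lie on different chromosomes: Klf2 at chr16:19223087-19225037, Klf4 at chr5:72283313-72287669, Klf5 at chr15:83703791-83722921, Klf6 at chr17:67887939-67945037, Klf9 at chr1:240908483-240933198 and Klf10 at chr7:77156006-77162148 (Rn6). TAPEs are intergenic by definition, and no other gene of the table overlaps a Klf gene. TAPE transcription was measured as CPKM, reads per kilobase of TAPE and 1 M reads of the library. A mean CPKM of 0.05 or more, needed for a test, was reached by 9 of the 159, against 1870 of 27538: 3 at Klf2, 2 each at Klf9 and Klf10, 1 each at Klf4 and Klf5, and none at Klf6. The other 150 have values here as descriptions only.

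Deposited correlations of TAPE CPKM with Klf mRNA over all libraries ranged from -0.57 to 0.76 over the 159 pairs. They exceeded 0.5 in 13 pairs (8.18%), against 5.30% of all 388605 TAPE-gene pairs. Klf10 had 6 of the 13, Klf4 and Klf9 had 2 each, and Klf2, Klf5 and Klf6 had 1 each. The Klf gene was the best correlated of all genes in reach for 20 of 33 TAPEs at the Klf6 locus, where TAPEs had 2 to 12 genes in reach. The same held for 5 of 31 at Klf4, 6 of 18 at Klf5, 3 of 21 at Klf9, 3 of 41 at Klf10 and 1 of 15 at the gene-rich Klf2 locus, where TAPEs had 41 to 89 genes in reach.

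**Figure D3:**
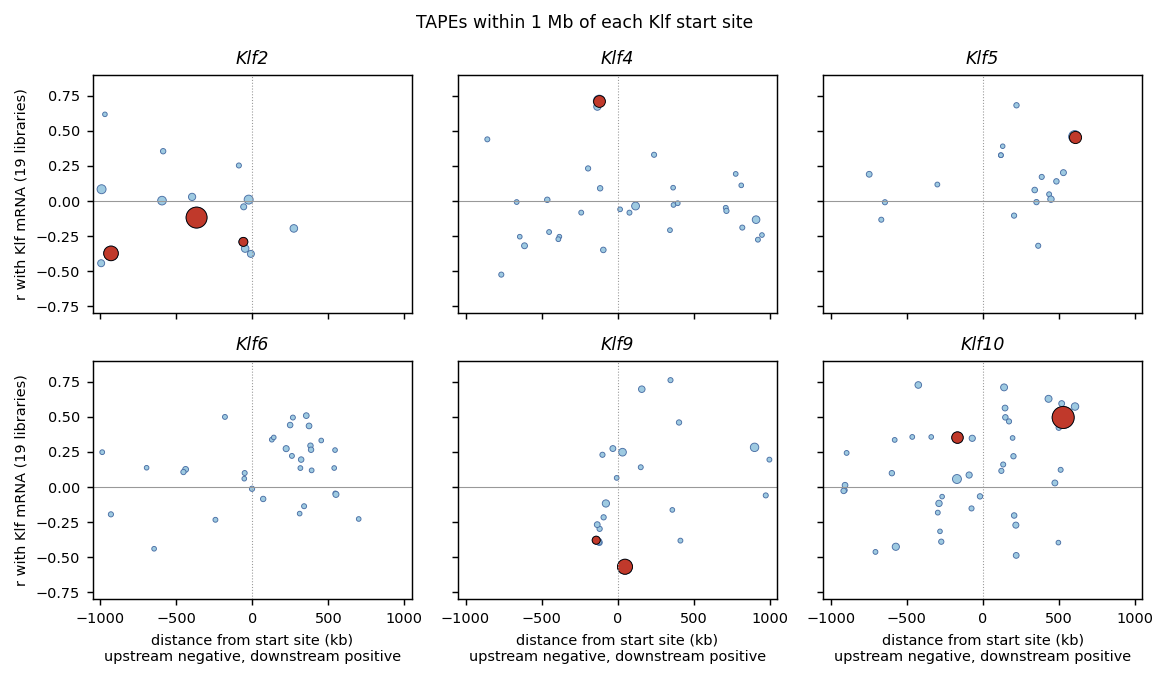
Correlation of each TAPE with its Klf mRNA over 19 libraries (vertical axis, Pearson r) against distance from the Klf start site (horizontal axis, kb, upstream negative), for 159 TAPEs at 6 loci. Point area rises with the reads of the TAPE, and red points are the 9 TAPEs with enough reads to test. At Klf4 the tested TAPE (r = 0.71) lies close to a second one with r = 0.67.

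The TAPE nearest to each start site was shallow at every locus. It lay 2467 bp upstream of Klf6 (15 reads over all libraries), 5660 bp upstream of Klf9 (5 reads), 9906 bp upstream of Klf2 (54 reads), 16939 bp downstream of the Klf4 start (5 reads), 17460 bp upstream of Klf10 (17 reads) and 119938 bp downstream of the Klf5 start (6 reads). Their r with the Klf gene lay between -0.38 and 0.33. None reached the depth for a test, so a KCl or region difference was not detectable there.

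No tested Klf-locus TAPE passed the KCl test within a single region or the test of a different KCl effect between regions. In limma, 0 of 9 were called in cortex, hippocampus and striatum, against 0.321%, 0.0535% and 1.23% of the 1870 TAPEs tested, and 2, 3 and 2 of the 9 had an unadjusted p under 0.05. The interaction called 0.0535% of TAPEs. Averaged over the 3 regions, a contrast added after the data were examined, 6.9% of TAPEs were called, 33 of 129 of them higher with KCl (57 of 95 once each library was centred on its median). That contrast called 1 of the 9, at the Klf4 locus, a TAPE that reached the filter on mean CPKM only through its KCl libraries. For scale, the typical tested TAPE had a log2 change of -0.09 (cortex), -0.16 (hippocampus) or -0.17 (striatum), as medians.

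The Klf4 TAPE at chr5:72406852-72409245 lies 120379 bp upstream of the Klf4 start site, and Klf4 is the nearest of the 3 genes in reach. Its 220 reads are spread over 18 libraries. In cortex its CPKM was 0.0402, 0.0230 and 0.0124 with vehicle and 0.108, 0.155 and 0.256 with KCl. In hippocampus it was 0.0591, 0.0432 and 0.00757 with vehicle and 0.234, 0.0589 and 0.111 with KCl. In striatum it was 0.0294, 0, 0.0793 and 0.0577 with vehicle and 0.158, 0.0462 and 0.0961 with KCl, where 0 is 0 reads. A floor of 3 reads is 0.0252 CPKM in that library, which is too low a bound where both mates of a fragment are counted.

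Only the cortical groups of this TAPE were fully apart, as for 5.88% of tested TAPEs (4.01% in hippocampus). Hippocampal KCl replicate 2 lay just under the highest vehicle library, and striatal KCl replicate 5 lay inside the vehicle range. Over the regions the TAPE was higher with KCl by 1.10 on the log2(CPKM + 0.05) scale (SE 0.22, limma adjusted p = 0.00272). The call held in 24 of 24 alternatives (adjusted p 0.000699 to 0.0258), and the exact permutation p within regions was 0.00107. Vehicle means were 0.0252, 0.0366 and 0.0416 CPKM in cortex, hippocampus and striatum, so only its KCl libraries brought this TAPE past the filter. These p therefore describe it and are no independent support for a KCl effect. The change was 1.53 in cortex (SE 0.35, adjusted p = 0.0888), 1.03 in hippocampus (SE 0.42, adjusted p = 0.363) and 0.73 in striatum (SE 0.39, adjusted p = 0.393). The cortical change passed once libraries were centred on their median (1.60, adjusted p = 0.0486). The interaction did not pass (adjusted p = 0.837), while that of Klf4 mRNA did.

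Across libraries, this TAPE had r = 0.71 with Klf4 mRNA (Spearman rho 0.76, and r = 0.75 without the 2 libraries farthest from the median). Only 0.481% of the tested TAPEs of the genome had a higher r with Klf4. The r was 0.81 over the 6 cortical, 0.73 over the 6 hippocampal and 0.65 over the 7 striatal libraries, which share the treatment. Once group means were removed, r was -0.01. With so few reads per library, this value cannot show whether libraries of the same group vary together.

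A neighbouring TAPE at chr5:72419385-72421284, 132666 bp upstream, was too shallow to test (62 reads in 14 libraries) and is named for its r after its values were seen. Its r with Klf4 was 0.67 over all libraries and 0.84 in cortex, 0.14 in hippocampus and -0.33 in striatum. Its mean CPKM was 0.0101 with vehicle and 0.0711 with KCl in cortex, 0.0375 and 0.0428 in hippocampus, and 0.0137 and 0.00672 in striatum. Together these were the only Klf4-locus TAPEs with r above 0.5.

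**Figure D4:**
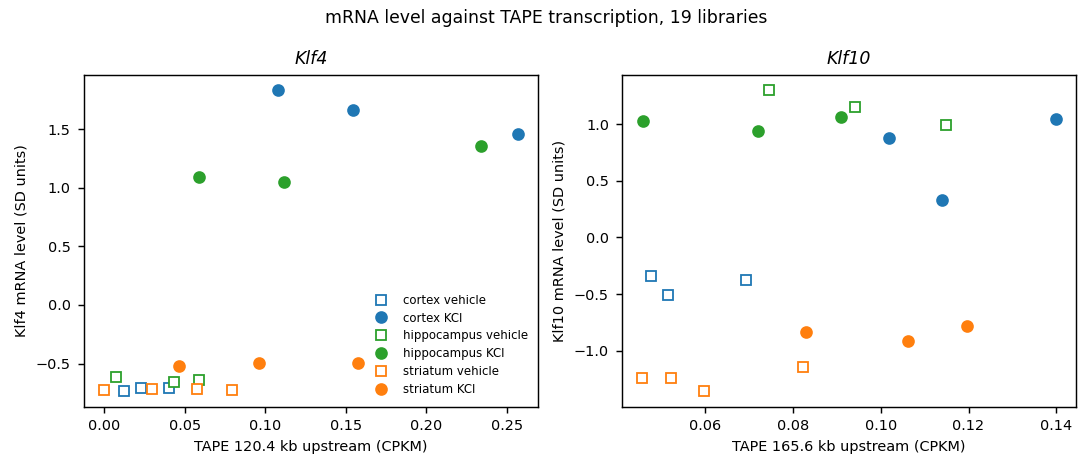
mRNA level (vertical axis, standardised units) against CPKM of a TAPE (horizontal axis) in 19 libraries, for Klf4 with the TAPE 120379 bp upstream (left) and Klf10 with the TAPE 165609 bp upstream (right). Open squares are vehicle and filled circles KCl libraries, coloured by region. Striatal KCl libraries lie between 0.0462 and 0.158 CPKM with Klf4 mRNA near -0.50, and all hippocampal libraries have Klf10 mRNA of 0.94 or more.

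The Klf10 TAPE at chr7:77326602-77328912, 165609 bp upstream, had group means that were higher with KCl in the same 2 regions as Klf10 mRNA, but it passed no test. It is named after its values were seen. Its CPKM in cortex was 0.0694, 0.0477 and 0.0514 with vehicle and 0.140, 0.102 and 0.114 with KCl. In striatum it was 0.0457, 0.0523, 0.0597 and 0.0822 with vehicle and 0.106, 0.120 and 0.0829 with KCl. In hippocampus it was 0.115, 0.0745 and 0.0941 with vehicle and 0.0909, 0.0458 and 0.0721 with KCl. KCl libraries were above all vehicle libraries in cortex and striatum (5.88% and 3.32% of tested TAPEs) and overlapped them in hippocampus. The striatal groups were only just apart, at 0.0829 and 0.0822.

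The log2 change of this TAPE was 0.67 in cortex (SE 0.31, adjusted p = 0.472), 0.48 in striatum (SE 0.30, adjusted p = 0.472) and -0.28 in hippocampus (SE 0.29, adjusted p = 0.706), and the interaction did not pass (adjusted p = 0.606). The r with Klf10 was 0.91 over the 6 cortical and 0.86 over the 7 striatal libraries, -0.05 over the 6 hippocampal ones, and 0.35 over all. Klf10 had the highest r of the 14 genes in reach, although Azin1 is nearer (44641 bp). Among vehicle libraries, its mean was 0.0945 CPKM in hippocampus, 0.0562 in cortex and 0.06 in striatum. With treatments pooled, the region test did not pass (adjusted p = 0.95).

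Group means were lower with KCl in all 3 regions at the Klf9 TAPE at chr1:240956586-240958600, 49110 bp downstream of the Klf9 start, which is named after its values were seen. Its CPKM in hippocampus was 0.140, 0.188 and 0.270 with vehicle and 0.130, 0.0525 and 0.0992 with KCl. In striatum it was 0.175, 0.290, 0.265 and 0.240 with vehicle and 0.141, 0.229 and 0.0666 with KCl, and in cortex 0.239, 0.109 and 0.199 with vehicle and 0.118, 0.217 and 0.102 with KCl. KCl libraries lay wholly below vehicle libraries in hippocampus only, and the share of tested TAPEs that do so was not counted. Only 34.1% of tested TAPEs had a log2 change above 0 in hippocampus. The mean log2 change of this Klf9 TAPE, -0.57 (SE 0.19), did not pass (limma adjusted p = 0.059), and its unadjusted exact permutation p was 0.0102. It passed without cortical vehicle 2, cortical KCl 2, hippocampal vehicle 1, hippocampal KCl 1, striatal vehicle 2 or striatal KCl 5 (adjusted p down to 0.028) and with a filter at a mean CPKM of 0.1 (0.0449), and not after centring (-0.44, adjusted p = 0.195). Its r with Klf9 mRNA, which rose in all regions, was -0.57, the lowest of the 159 pairs.

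With treatments pooled, 3 of 9 Klf-locus TAPEs depended on region (limma F-test), against 48.8% of all tested TAPEs. The Klf5 TAPE at chr15:84308875-84310691, 605992 bp downstream, was highest in striatum, at 0.214 ± 0.102 CPKM (SD, n = 7; 0.0949 to 0.378), while cortical libraries had 0.0781 ± 0.0535 (n = 6) and hippocampal ones 0.0598 ± 0.0421 (n = 6). This order of regions was that of Klf5 mRNA. It passed at an adjusted p of 0.000968 and in 27 of 27 alternatives. Its striatal range overlapped the highest cortical and hippocampal libraries (0.166 and 0.116). Klf12, another member of the family, lies nearer (438742 bp) and had a higher r with this TAPE (0.70) than Klf5 did (0.46).

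The Klf10 TAPE at chr7:76630955-76633617, 529862 bp downstream, was the deepest of the 159 (857 reads). It was highest in hippocampus, at 0.397 ± 0.0549 CPKM (n = 6; 0.348 to 0.483), while cortical libraries had 0.253 ± 0.0958 (n = 6) and striatal ones 0.225 ± 0.0606 (n = 7), the order of Klf10 mRNA among vehicle libraries. The adjusted p was 0.00811, and the call held in 27 of 27 alternatives. Its r with Klf10 was 0.49, and 6 genes in reach had a higher one, led by Rrm2b (0.74).

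The Klf9 TAPE at chr1:240767659-240769118, 140094 bp upstream, was the third that depended on region with treatments pooled. It was lowest in hippocampus, at 0.0193 ± 0.0267 CPKM (n = 6; 0 to 0.0685, 10 reads), with 0.0625 ± 0.0344 for cortical libraries (n = 6) and 0.0691 ± 0.0359 for striatal ones (n = 7), while resting Klf9 mRNA was highest there. The adjusted p was 0.0179, and the call was kept in 20 of 26 alternatives. It was lost without hippocampal vehicle replicate 1 or 3 or hippocampal KCl replicate 2 (up to 0.0558), with centring (0.06), with no filter on low values and with a replicate block (0.082). Its r with Klf9 was -0.38.

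The 3 tested Klf2 TAPEs passed no test, and those at 59614 and 930385 bp are named after their values were seen. The deepest, at chr16:19591211-19593568 (367352 bp upstream, 771 reads), had a mean log2 change of -0.40 (SE 0.15, adjusted p = 0.0909), which passed only without striatal KCl replicate 1 (0.0475). Its CPKM in striatum was 0.291, 0.436, 0.322 and 0.293 with vehicle and 0.280, 0.164 and 0.130 with KCl, all KCl libraries below all vehicle ones. The share of tested TAPEs separated in this direction was not counted. Only 32.9% of tested TAPEs had a log2 change above 0 in striatum. Klf2 mRNA did not pass by treatment in striatum, and the r of this TAPE with Klf2 was -0.12 over all libraries. The TAPEs at 59614 and 930385 bp upstream had r of -0.29 and -0.37 and adjusted p of 0.583 and 0.73.

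**Figure D5:**
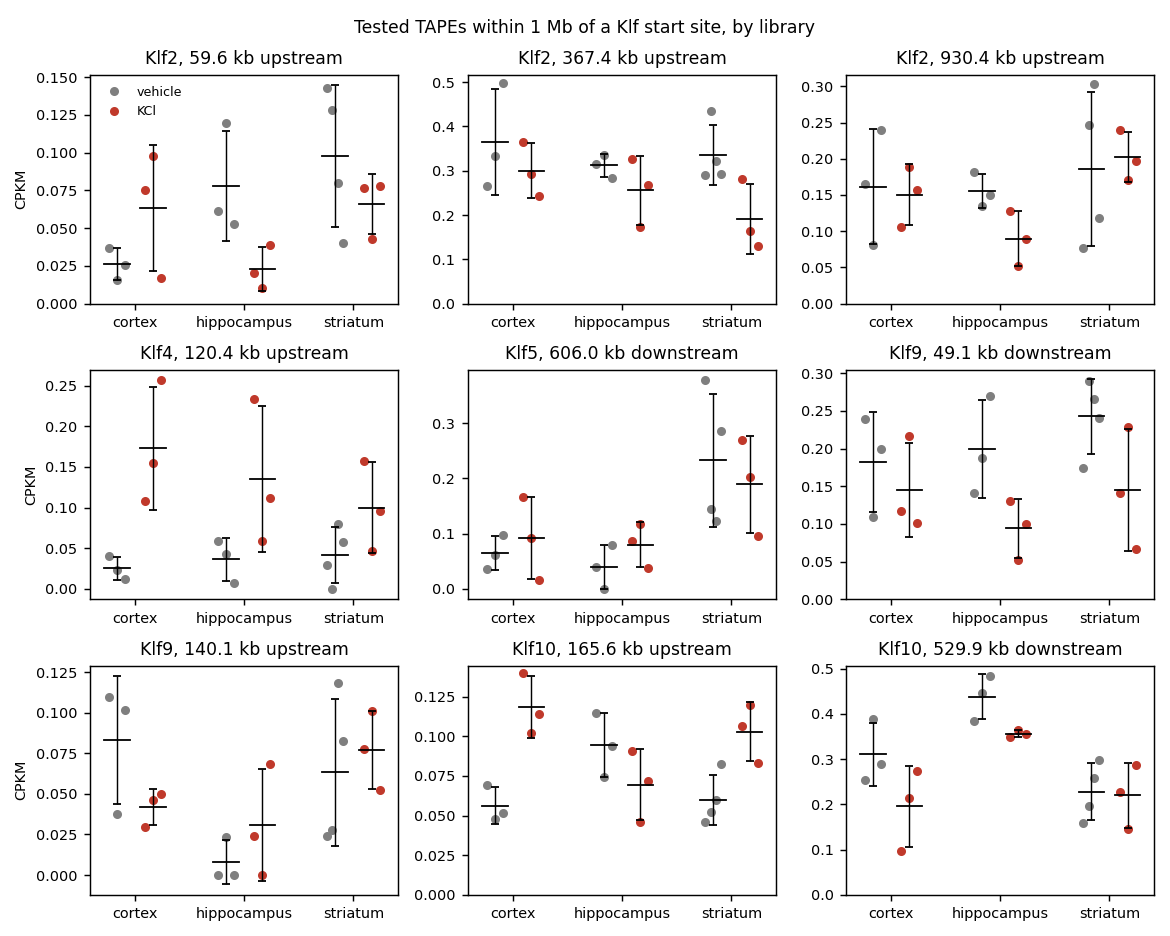
CPKM of the 9 tested TAPEs (vertical axis, linear, own scale in each panel) by region, with vehicle in grey and KCl in red. Points are libraries, bars the mean and SD, and titles give the gene and the distance from its start site. The Klf4 TAPE is raised by KCl most clearly in cortex (0.108 to 0.256 against 0.0124 to 0.0402), and the Klf5 TAPE is highest in striatum.

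Over all Klf-locus TAPEs with reads in a region, group means were higher with KCl for 74 of 142 in cortex (52.1%), 49 of 123 in hippocampus (39.8%) and 58 of 134 in striatum (43.3%). Over all TAPEs the shares were 45.4%, 42.4% and 41.7%. Summed over the 31 Klf4-locus TAPEs, cortical reads were 0.341 ± 0.116 per M with vehicle and 0.865 ± 0.247 with KCl (SD, n = 3 each). Hippocampal sums were 0.672 ± 0.0525 and 0.674 ± 0.189, and striatal sums 0.545 ± 0.152 and 0.683 ± 0.113, in the same order. At Klf6, with no tested TAPE, the sum was 0.519 ± 0.125 per M in resting cortex, 0.245 ± 0.120 in hippocampus and 0.252 ± 0.0578 in striatum, with cortex highest as for the resting mRNA. The Klf5 sum was highest in striatum (0.807 ± 0.322 with vehicle, n = 4) and the Klf10 sum in hippocampus (2.68 ± 0.360 with vehicle, n = 3). These sums over shallow TAPEs were not tested. The Klf4, Klf5 and Klf10 sums include the TAPEs described singly above, so they do not show a pattern shared by the whole locus.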

How the data were processed

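Total RNA-seq of 19 libraries was used. The authors trimmed reads with Trim Galore 0.4.5, aligned them to the rat genome Rn6 with STAR, handled alignments with SAMtools 1.9, called TAPEs on pooled libraries and counted reads over both strands in SeqMonk. The deposited CPKM of each TAPE is an RPKM value, reads per kilobase and 1 M reads of the library. Whole reads were recovered for 100% of values (within 0.01 read). The deposited correlation of each TAPE-gene pair is a score from -1 to 1, over all libraries and within each region. Gene levels were not used as such: standardised profiles of 16564 of 17715 genes (93.5%) were solved from these correlations and returned them within 1e-13.

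Profiles were compared by an exact permutation test of KCl labels within regions. TAPEs whose mean CPKM reached 0.05 were tested with limma 3.58.1 (R 4.3.3, trend) on log2(CPKM + 0.05), which understates changes of low TAPEs. Both used Benjamini-Hochberg adjustment over all features and a threshold of 0.05. limma on gene profiles, and the contrast averaging the 3 regions, were added after the data were examined. Scripts were tested on simulated data (Python 3.11.15).

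Members and lists were chosen with earlier results of these data known. Named were the 6 Klf genes, the 5 genes most like each (1 of them is not reported here), and at each locus the nearest TAPE, the tested TAPE with the highest r, TAPEs called for KCl or the interaction, and up to 3 called region dependent. The study's methods call the libraries of a group biological replicates. Floors of 3 reads cover counting error only, and take reads as independent of each other. Alternatives were other pseudocounts and filters, median centring, a single fit, voom on recovered reads, ranks, a replicate block and leaving out each library or region. No replicate numbers were used to pair libraries in the results given.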

Additional observations from a re-analysis of the deposited data

Results flagged for a closer look

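The KCl difference of mRNA differed between regions for each of the 6 Klf genes by the interaction test (limma F-test, adjusted p over all genes). The adjusted p was 0.00342 for Klf2, 1.27e-05 for Klf4, 0.0128 for Klf5, 9.02e-05 for Klf6, 0.00446 for Klf9 and 0.013 for Klf10, against 2.84% of all genes called. The immediate early genes checked passed this test too. The regional differences are on a linear scale, and fold changes cannot be given. In hippocampus relative to cortex, the difference was 81.0% for Klf2, 76.1% for Klf4, 74.2% for Klf5, 439% for Klf6, 200.2% for Klf9 and -11.9% for Klf10. In striatum relative to cortex, it was -1.5%, 9.24%, 196%, 130%, 67.7% and 35%, in the same order. The 4 striatal vehicle libraries were also examined for one far from the others, for the 6 genes and the 9 tested TAPEs, and none was found. Groups of 3 libraries were not examined in this way.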

How the results depend on the processing

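Of 438 alternative values for Klf gene differences, 373 kept their direction and side of the threshold, 59 no longer passed, 1 passed newly and 5 changed sign. Of 587 for TAPE changes, 560 kept both, 9 passed newly and 18 changed sign. The number of Klf genes called over the 3 regions was 0 without striatum, where 400 arrangements allow no p below 0.0025 (0 of all genes called, 3449 at an unadjusted p under 0.05). Median centring gave 1 cortical TAPE and no filter gave 9 region-dependent TAPEs. Leaving out 1 library gave 1 to 2 TAPEs for the KCl average, 0 to 2 Klf genes in cortex, 3 to 4 in hippocampus and 3 to 5 for resting striatum minus cortex; the cause was not tested.

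Signs that changed all belong to values that did not pass. Leaving out 1 library gave -0.0605 to 0.0051 units for Klf2 in striatum, -0.055 to 0.0939 for resting Klf2 in hippocampus minus cortex and -0.0128 to 0.0031 for resting Klf4 in striatum minus cortex. On the log2 scale it gave -0.0529 to 0.1545 for the KCl average of the Klf9 TAPE 140094 bp upstream, and -0.2304 to 0.1646 for the Klf10 TAPE 529862 bp downstream in striatum (0.0932 with centring). For the Klf5 TAPE 605992 bp downstream it gave -0.2042 to 0.6501 in cortex (-0.1345 with voom) and -0.4614 to 0.1104 in striatum. For the Klf2 TAPE 930385 bp upstream it gave -0.3365 to 0.2364 in cortex (0.0479 with centring, 0.0517 with voom) and -0.0516 to 0.4392 in striatum.

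The replicate block called 4 of 6 Klf genes, without Klf2 (adjusted p = 0.098) and Klf10 (0.107), and TAPE calls of the whole table were 3 in cortex, 0 in hippocampus and 568 for region against 6, 1 and 912; the Klf9 TAPE 140094 bp upstream no longer depended on region. Deviations of same-numbered libraries over the tested TAPEs had r from -0.042 to 0.014. With few reads per TAPE and library, such values cannot show whether the numbers pair libraries, and mRNA profiles were not checked in this way. Striatal treatments share no numbers, so the block covers cortex and hippocampus only.

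Over all TAPEs, calls in cortex, hippocampus and striatum were 6, 1 and 23. They were 0, 0 and 2 with no filter, 5, 9 and 30 with a filter at 0.1, 12, 19 and 25 in a single fit, 10, 4 and 23 with centring, and 7, 1 and 34 with voom on recovered reads. The interaction and the average gave 1 and 129, against 4 and 130 with voom, 3 and 115 with the filter at 0.1, and 2 and 57 with no filter. Depth limits these tests: 150 of 159 Klf-locus TAPEs were too shallow to test.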
